A study of Mus musculus with 4 samples.

Results

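The AP-1 and immediate-early transcription factors described here are Fos, Fosb, Fosl1, Fosl2, Jun, Junb, Jund, Atf3, Egr1 and Maff, chosen as every probe whose platform gene symbol is one of these 10 names. A named probe was found for 9 of them, the measured members, out of 16593 named genes, in 10 probes of 25697, since Maff has 2. Fosl2 had no named probe and was not analysed here. Their messenger RNA was quantified with Illumina bead arrays in embryonic fibroblasts of p19ARF-/- mice, on 2 arrays of cells stably transduced with wild-type NSD2 and 2 arrays of cells stably transduced with a control vector. NSD2 is an enzyme that dimethylates histone H3 at H3K36. Both groups lack p19ARF, which restrains MDM2, grew in medium with fetal bovine serum and received no treatment. The promoter that drives NSD2 in the vector, and whether the arrays of a group came from separate cultures, are not given in the sources used here, so the p-values cover only the scatter among these arrays, part or all of which may be technical. No named probe matched Nsd2 or its older symbol Whsc1, so the transduced gene was not analysed here. The study's description mentions 3 tests per line, and the data used here hold 2 arrays of each. The design has 1 comparison, which asks what differs once wild-type NSD2 is added.

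AP-1 is a transcription factor made of 2 proteins with basic leucine zippers, one from the Jun family and its partner from the Jun, Fos, ATF or Maf families. Fos proteins cannot pair with themselves and need a Jun partner, while Jun proteins can pair with each other. Fos, Fosb, Jun, Junb, Atf3 and Egr1 are known as immediate-early genes, transcribed within minutes of serum or growth factor stimulation without new protein synthesis, and in fibroblasts Fosl1 follows later as a target of AP-1 itself.

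Promoter windows of 250 bases before the annotated start were read from RefSeq (GRCm38.p6), where 8 of the 10 genes had an entry. The 4 printed below are examples, those of Fos and Junb, lowest on the second control array, and of Jun and Atf3, whose means were lower with NSD2. These traits are not theirs alone, as Jund was also lowest on the second control array and Junb also had a lower mean with NSD2. They read 5′ to 3′ in the direction of the gene, and capitals mark 5 motifs searched on both strands. These were the TATA box TATAAA, the shorter core TGACG of the cyclic AMP response element, the full element TGACGTCA that contains that core on each strand, the TPA response element TGACTCA, which AP-1 binds, and TGACATCA, a form known from the Jun promoter.
Fos, chr12:85473640-85473889, plus strand: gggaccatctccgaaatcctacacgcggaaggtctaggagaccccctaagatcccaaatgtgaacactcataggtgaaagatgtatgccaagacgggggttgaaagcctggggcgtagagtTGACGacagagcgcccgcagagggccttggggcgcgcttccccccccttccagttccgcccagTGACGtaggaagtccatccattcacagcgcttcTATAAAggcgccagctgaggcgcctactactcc
Junb, chr8:84978749-84978998, minus strand: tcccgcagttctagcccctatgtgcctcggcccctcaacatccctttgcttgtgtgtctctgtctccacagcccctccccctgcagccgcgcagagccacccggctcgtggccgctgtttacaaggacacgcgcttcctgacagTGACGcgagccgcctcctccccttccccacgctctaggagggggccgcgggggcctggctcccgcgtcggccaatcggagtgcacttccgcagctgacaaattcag
Jun, chr4:95052223-95052472, minus strand: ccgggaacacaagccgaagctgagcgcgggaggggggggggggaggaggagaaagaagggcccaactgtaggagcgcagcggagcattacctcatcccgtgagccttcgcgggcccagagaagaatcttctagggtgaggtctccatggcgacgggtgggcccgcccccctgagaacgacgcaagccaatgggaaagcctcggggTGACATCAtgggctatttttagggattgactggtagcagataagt
Atf3, chr1:191183334-191183583, minus strand: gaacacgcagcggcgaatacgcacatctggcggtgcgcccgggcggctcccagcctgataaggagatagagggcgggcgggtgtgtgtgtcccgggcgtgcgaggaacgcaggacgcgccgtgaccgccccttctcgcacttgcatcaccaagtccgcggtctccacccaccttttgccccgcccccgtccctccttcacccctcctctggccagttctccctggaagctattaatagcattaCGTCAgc
The Fos window held TATAAA from base 33 before the start and TGACG from bases 129 and 66. The Junb window held TGACG from base 106, the Jun window TGACATCA from base 45, and the Atf3 window TGACG on the other strand from base 7. None of the 4 printed windows held TGACTCA or TGACGTCA. Of the windows not printed, those of Fosl2 and Jund held none of the 5 motifs, and that of Fosb held TGACG from base 60. Maff had several windows, of which 1 held TGACGTCA from base 29, another TGACATCA from base 45, and another no motif. Among 32851 promoter windows of the same length, 17.8% held TGACG, 12.4% TATAAA, 4.46% TGACTCA, 2.93% TGACATCA and 1.55% TGACGTCA. These matches describe the letters of the windows, and no binding was measured.

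The arrays had median signals of 164 and 172 with NSD2, against 173 and 204 with the control vector, and 42.3% to 45.9% of probes per array lay above background. Background was set per array from the dim side of its signal distribution. Of 10 fibroblast markers with a probe, 9 were above background on all 4 arrays. The summed signal of all 10 was 42296 and 59063 with NSD2, against 41373 and 54510 with the control vector. The labels also carry a tissue entry of blood, and entries for sex and age that do not describe embryonic cells. Of 5 haematopoietic markers with a probe, 1 (Cd14) was above background on all 4 arrays, and of 4 endothelial markers none was. Of 4 epithelial markers 3 keratin genes were. The summed signal of all 4 epithelial markers was 3591 and 5642 with NSD2, against 3948 and 5722 with the control vector. Their part in the results was not tested. With so few arrays the precision of the values below is limited. A group of 2 against 2 allows no exact two-sided p below 0.333, so each test rests on the spread that limma shares between probes.

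None of the 9 measured members passed the test of NSD2 against control vector (limma, Benjamini-Hochberg adjusted p under 0.05, all at 0.9996), where 4 of all genes passed, a share of 0.0241%. At an unadjusted limma p under 0.05 there was 1 member, Fosl1, against 3.91% of all genes. Of the 9 members, 7 were above background on all 4 arrays, Fosb on 2 and Maff on none. Among those 7, the mean was higher with NSD2 for Fos, Egr1 and Jund and lower for Fosl1, Jun, Atf3 and Junb, and the median difference on the log2 scale was -0.056, against -0.0037 over the 6902 genes above background on all 4 arrays. The groups did not overlap in 2 of the 7, Fosl1 and Atf3, both lower with NSD2. Over the 6902 genes the share without overlap was 15.6% in that direction, 15.1% in the other and 30.7% in either. Values below are normalized log2 intensities, which are not comparable between probes of different genes, and differences are NSD2 minus control vector.

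**Figure D1:**
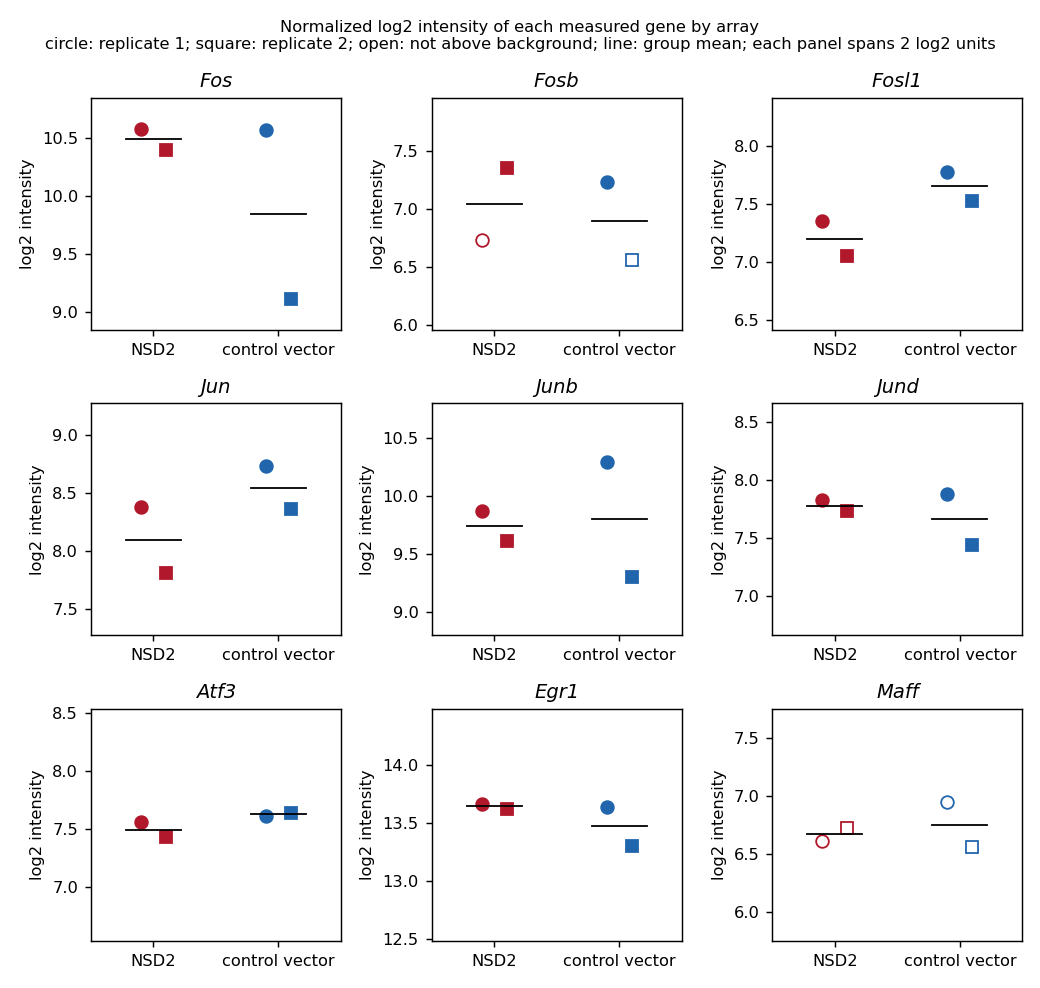
Normalized log2 intensity of the 9 measured genes on each array, NSD2 left and control vector right, with circles for replicate 1, squares for replicate 2, open symbols for signals not above background and a line at each group mean. Every panel spans the same log2 range, and the square of the control vector lies lowest for Fos (9.11), Junb (9.31), Jund, Egr1 and the dim Fosb and Maff, while both NSD2 arrays lie below both control arrays for Fosl1 and Atf3.

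The Fos subfamily showed differences of opposite sign. Fos, the founding member and the classical serum-induced partner of Jun (probe ILMN_2750515), had log2 intensities of 10.58 and 10.40 on the NSD2 arrays, against 10.58 and 9.11 on the control arrays. Of the 4 arrays, 3 lay close together and the second control array lay apart below them, so the groups overlapped. The deposited signals of this probe were 1278 and 1782 with NSD2, against 1326 and 740 with the control vector, 3.38 to 9.79 times the background of the array. The mean was 10.49 ± 0.13 with NSD2 and 9.85 ± 1.03 with the control vector (SD, n = 2 each), a difference of 0.65 ± 0.33 (SE, 95% interval -0.051 to 1.35, limma adjusted p = 0.9996). A difference of at least this size was seen in 0.663% of all 16593 genes, of which 7519 were above background on no array. Even so, the control arrays differed from each other by more. Without the second control array the difference was -0.084, and without the first it was 1.38. A fit with 1 control array holds no spread between control arrays, so its test is not read here.

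Fosl1, which encodes FRA-1, the late-rising Fos family member of proliferating fibroblasts (probe ILMN_2649550), had log2 intensities of 7.35 and 7.05 with NSD2, against 7.78 and 7.52 with the control vector. Both NSD2 arrays lay below both control arrays. The mean was 7.20 ± 0.21 with NSD2 and 7.65 ± 0.18 with the control vector (SD, n = 2 each), a difference of -0.45 ± 0.21 (SE, 95% interval -0.90 to -0.000267, unadjusted p = 0.0499, limma adjusted p = 0.9996). The signals were dim, 201 and 198 with NSD2, against 254 and 290 with the control vector, or 1.09 to 1.38 times the background of the array. In the authors' processed values, which lie nearer to 0, the same probe stood at 95.3 and 61.5 with NSD2, against 148 and 113 with the control vector, a log2 difference of -0.75. The difference kept its sign in 13 of 13 alternative settings, between -0.75 and -0.28, and passed the test in none. Several of these, such as the replicate block, change only the test and leave the estimate at -0.45. As the groups did not overlap, leaving out 1 array also had little room to turn the sign.

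Fosb, a Fos family member best known from neurons (probe ILMN_2778279), was above background on the second NSD2 array and the first control array only. Its log2 intensities were 6.74 and 7.36 with NSD2, against 7.24 and 6.57 with the control vector, so each group had 1 array above background and 1 below it. The groups overlapped throughout, with a difference of 0.15 ± 0.26 (SE, 95% interval -0.40 to 0.69), which was -0.19 without the second control array and -0.15 without the second NSD2 array.

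Jun, the strongest activator of the family (probe ILMN_2646625), had log2 intensities of 8.38 and 7.81 with NSD2, against 8.73 and 8.36 with the control vector. The second NSD2 array was the lowest of the 4, and the first NSD2 array and the second control array were nearly level. The means were 8.10 ± 0.40 with NSD2 and 8.55 ± 0.26 with the control vector (SD, n = 2 each), a difference of -0.45 ± 0.23 (SE, 95% interval -0.95 to 0.046, limma adjusted p = 0.9996). The difference was negative in 13 of 13 alternative settings, from -0.75 without the first NSD2 array to -0.17 without the second, and passed the test in none. Several of these settings, such as the replicate block, cannot move the estimate.

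Junb, which can restrain Jun and is itself an immediate-early gene (probe ILMN_1220034), had log2 intensities of 9.87 and 9.61 with NSD2, against 10.29 and 9.31 with the control vector. The 2 control arrays were the highest and the lowest of the 4, with both NSD2 arrays between them. The difference was -0.056 ± 0.27 (SE, 95% interval -0.63 to 0.52), and it was 0.44 without the first control array and -0.55 without the second. Jund, the family member that is expressed in resting cells (probe ILMN_2682788), had log2 intensities of 7.83 and 7.73 with NSD2, against 7.88 and 7.44 with the control vector. Here too the control arrays enclosed the NSD2 arrays, with a difference of 0.12 ± 0.22 (SE, 95% interval -0.34 to 0.58) that was -0.10 without the second control array.

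Atf3 and Maff, the members from the ATF and Maf families, had signals near or below background, as had Fosl1 and Fosb. Atf3, a stress-induced member of the ATF family that pairs with Jun proteins (probe ILMN_2619408), had log2 intensities of 7.56 and 7.43 with NSD2, against 7.62 and 7.64 with the control vector. Both NSD2 arrays were the lower ones, by a margin of less than the gap between them. The difference was -0.14 ± 0.20 (SE, 95% interval -0.56 to 0.29, limma adjusted p = 0.9996), at 1.24 to 1.42 times background. It stayed negative in 13 of 13 alternative settings. Among those that left out 1 array it ran from -0.21 without the first NSD2 array to -0.067 without the second. As for Fosl1, the groups did not overlap and several settings cannot move the estimate, so the sign had little room to turn. Maff encodes a small Maf protein, which has a leucine zipper but no activation domain. Neither of its probes, ILMN_2629354 and ILMN_1256996, was above background on any array, with signals of 131 to 179 with NSD2, against 160 to 209 with the control vector, and no direction is read from them.

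Egr1, a zinc finger factor and not a zipper protein, is induced through serum response elements, as Fos is (probe ILMN_2662926). It had log2 intensities of 13.67 and 13.63 with NSD2, against 13.64 and 13.31 with the control vector. As for Fos, 3 arrays lay together and the second control array was the lowest. The deposited signal was 11142 and 15158 with NSD2, against 11035 and 11982 with the control vector, 54.7 to 83.3 times the background of the array. The difference was 0.17 ± 0.21 (SE, 95% interval -0.27 to 0.62, limma adjusted p = 0.9996). Without the second control array it was 0.0047.

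**Figure D2:**
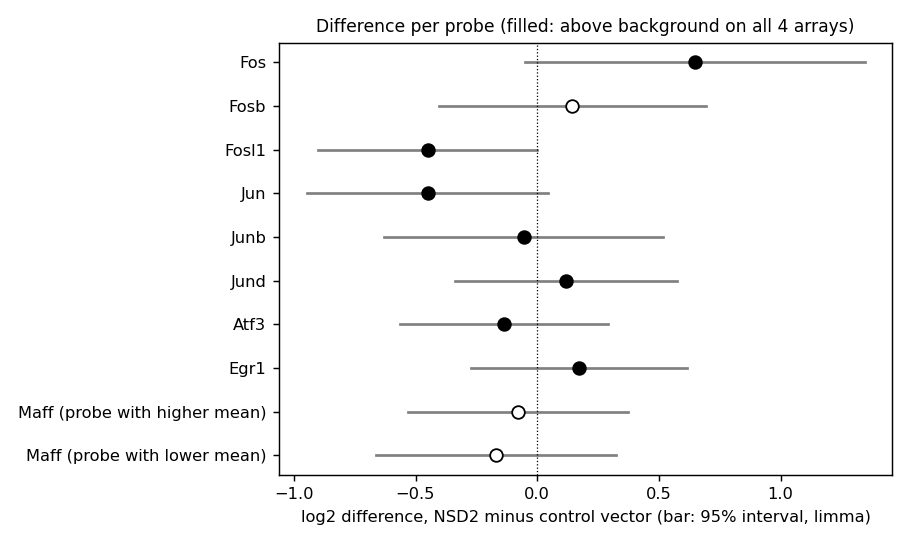
Log2 difference, NSD2 minus control vector, for each of the 10 probes of the measured members, with points for the limma estimate and bars for its 95% interval, filled where the probe was above background on all 4 arrays. Fos has the highest estimate (0.65), Fosl1 and Jun the lowest (-0.45 each), and the interval of Fosl1 alone ends just below 0.

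The second control array was the lowest of the 4 for Fos, Junb, Jund and Egr1, 4 of the 7 members above background on all arrays, and the second NSD2 array for Fosl1, Jun and Atf3. Among the 6902 genes above background, the second control array was the lowest for 23.4% and the second NSD2 array for 26.3%. Neither first array was the lowest for any of the 7, against 25.2% (control vector) and 25.1% (NSD2) of the 6902 genes. For each of the 7 the mean of the replicate 2 arrays lay below that of the replicate 1 arrays, with differences from -0.82 for Fos to -0.051 for Atf3. The share of the 6902 genes with this direction was not computed, so the count is not read as particular to the members. These groupings were made after the values were seen and have no test. The other immediate-early genes did not all follow them: of 18 above background on all 4 arrays, the second control array was the lowest for 5 and the first NSD2 array for 9.

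Genes around the members were described from 4 lists, by their members above background on all 4 arrays. No gene of these lists passed the test over all genes, where the share was 0.0241%. Among other immediate-early genes, NSD2 means were higher in 7 of 18 and lower in 11, with a median difference of -0.11. Klf2, a zinc finger factor, had log2 intensities of 8.22 and 8.29 with NSD2, against 7.97 and 7.61 with the control vector, a difference of 0.46 ± 0.21 (SE, limma adjusted p = 0.9996). Plk3, a stress-responsive kinase gene, had 8.16 and 8.22 with NSD2, against 8.51 and 8.72 with the control vector. For Myc, the growth regulator, the groups overlapped, at 7.09 and 7.75 with NSD2, against 8.19 and 7.44 with the control vector. Egr2, of the same zinc finger family as Egr1, differed by -0.33 ± 0.21 (SE), a sign opposite to that of Egr1, and the difference between the 2 genes was not tested.

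For the 11 other zipper protein genes above background, 4 NSD2 means were higher and 7 lower, with a median of -0.066. Mafg, a small Maf gene like Maff, had log2 intensities of 9.89 and 10.35 with NSD2, against 10.48 and 10.54 with the control vector (-0.39 ± 0.22, SE). Bach1, a repressor that pairs with small Maf proteins, had 9.15 and 9.03 with NSD2, against 9.53 and 9.35 with the control vector (-0.34 ± 0.20, SE). In both, the NSD2 arrays lay below the control arrays. Crem, a cyclic AMP responsive factor, differed by 0.18 and Atf4, the amino acid stress factor, by -0.14, and 2 further Crem probes above background on some arrays differed by -0.23 and -0.18.

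Upstream of AP-1, 6 of 8 kinases and factors had higher means with NSD2, with a median of 0.14. Fbxw7, part of a ubiquitin ligase that targets Jun, had log2 intensities of 8.21 and 7.98 with NSD2, against 8.61 and 8.32 with the control vector (-0.37 ± 0.21, SE), while another probe, above background on 1 array, differed by 0.28. Mapk14, the p38 kinase gene, differed by 0.21 ± 0.20 (SE), Elk3, a partner of serum response factor, by 0.21 ± 0.21, and Map2k1, which activates ERK, by 0.25 ± 0.26. Over the 8 genes the groups did not overlap in 3, against 30.7% of all genes above background.

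Of 14 genes known as AP-1 targets, 12 had lower and 2 higher means with NSD2, with a median of -0.15, where 3506 of the 6902 genes above background had lower means. The groups did not overlap in 7 of them, all lower with NSD2, against 15.6% of all genes above background in that direction. These shares were not tested against each other, the genes share the same 4 arrays, and the list was fixed with earlier results of these data known. Sphk1, a sphingosine kinase gene, had log2 intensities of 8.14 and 8.43 with NSD2, against 8.81 and 8.90 with the control vector, a difference of -0.57 ± 0.21 (SE, limma adjusted p = 0.9996), and another probe above background on 1 array differed by 0.29. Mmp14, a membrane-bound matrix protease gene, differed by -0.39 ± 0.21 (SE). For Ccnd1, the cyclin D1 gene, the probe with the highest mean differed by -0.24 and 2 others, also above background on all 4 arrays, by -0.084 and 0.33, so its direction depended on the probe. The same held for Vegfa, a vascular growth factor gene, at -0.23 and 0.052.

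**Figure D3:**
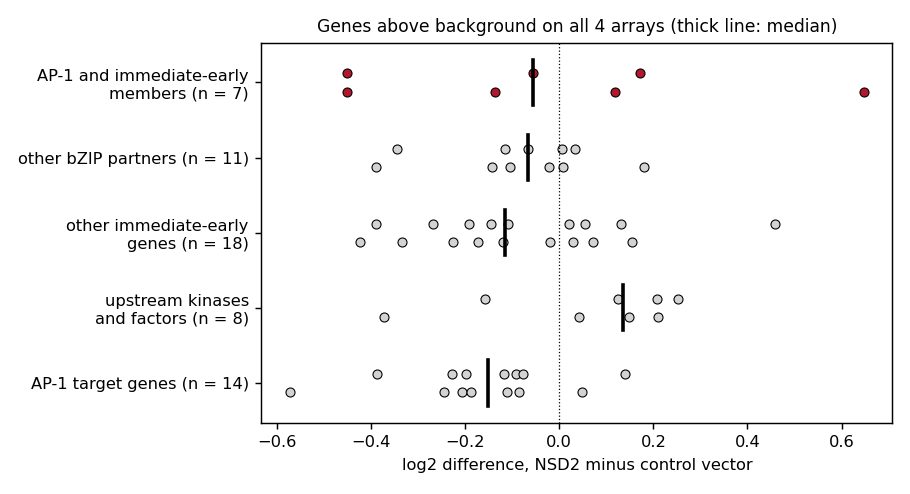
Log2 difference, NSD2 minus control vector, for the genes above background on all 4 arrays in each list, 1 point per gene, with a thick line at the median. The members (red) span -0.45 to 0.65 around a median of -0.056, and the AP-1 target genes have the lowest median, -0.15.

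The genes with profiles most like those of Fos and Fosl1 were found by the root mean square difference of the 4 log2 values, each gene centred on its own mean, among 6901 other genes above background on all 4 arrays. Nearest to Fos were Cpsf6, a factor of messenger RNA cleavage (0.27 log2 units), and the chemokine genes Cxcl1 (0.28) and Cxcl15 (0.29), against a median of 0.63 over all candidates. Cpsf6 had log2 intensities of 9.11 and 8.99 with NSD2, against 9.16 and 8.31 with the control vector, with 1 low control array. Cxcl15 had 11.55 and 11.52 with NSD2, against 10.93 and 10.04 with the control vector, and in it, as in Cxcl1, both NSD2 arrays lay above both control arrays, unlike in Fos. Nearest to Fosl1 were Abhd14b, an alpha/beta hydrolase gene (0.029), Fgf5, a fibroblast growth factor gene (0.034), and Aldh1a3, a retinaldehyde dehydrogenase gene (0.041), against a median of 0.30. Fgf5 had log2 intensities of 7.51 and 7.29 with NSD2, against 7.93 and 7.71 with the control vector, and differed by -0.42.

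**Figure D4:**
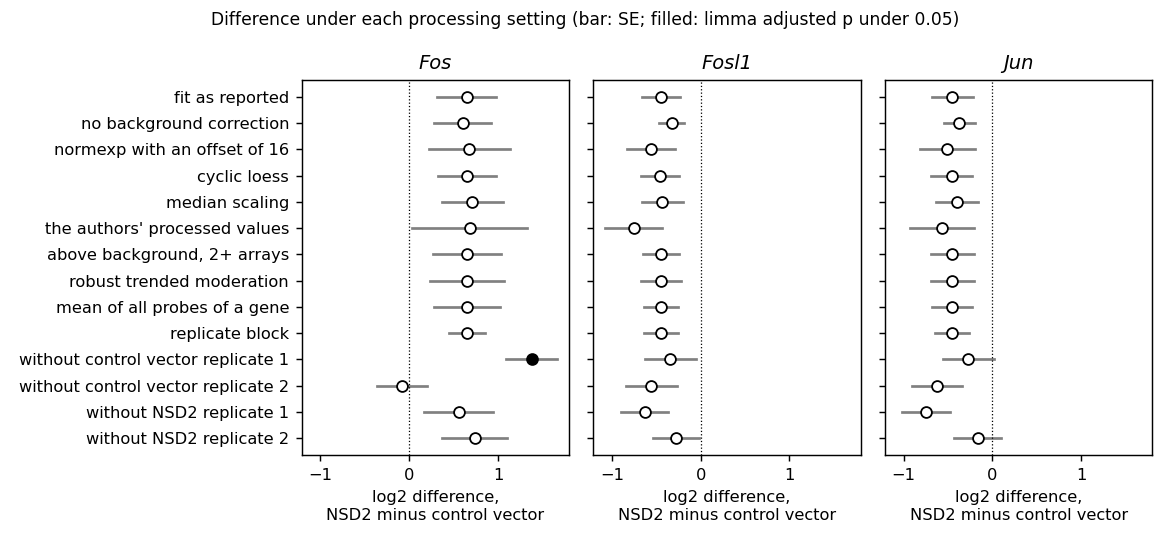
Log2 difference, NSD2 minus control vector, of Fos, Fosl1 and Jun in the reported fit and 13 alternative settings, with bars for the SE and a filled point where the limma adjusted p was under 0.05. Only Fos without control vector replicate 1 passed (1.38), and without control vector replicate 2 Fos lay at -0.084, while Fosl1 and Jun stayed below 0 in every setting shown.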

How the data were processed

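Total RNA of 4 samples, 2 with NSD2 and 2 with a control vector, was amplified, labelled with biotin and hybridised to Illumina bead arrays, per the labels' protocols. The main table holds, per the file headers, the average bead signal per probe, an intensity that the authors deposited without normalization, background subtraction or detection p-values. A second deposited table holds the authors' processed intensity, made by a method not given in the sources used here. Its Pearson correlation with the untransformed signal across the probes of each array rounded to 1, so it is linear in the signal and runs in the same direction, with array medians of 48.6 and 42.3 (NSD2) and 48.7 and 42.4 (control vector) and some values below 0.

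Signals were corrected with normexp (offset 50), put on the log2 scale and then quantile normalized over 25697 probes. They were tested with limma 3.58.1 in R 4.3.3 (lmFit and eBayes, no covariate, two-sided, Benjamini-Hochberg over all probes, threshold 0.05). The offset understates differences of dim probes. Lacking detection p-values, a probe was above background where it exceeded the upper 5% point of the array's lower signal distribution mirrored about its mode. Platform symbols named 23978 probes, with 1719 unnamed here and 0 with several symbols. A gene is given by its probe with the highest mean. Named genes are the members, up to 4 per list with the largest difference, and the 3 genes nearest to Fos and to Fosl1. Members and lists were chosen with earlier results of these data known. The fit was tested on simulated data. Each alternative changed 1 choice, except that robust moderation came with a trend, and the authors' processed values, floored at 16, replaced correction and normalization together.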

Additional observations from a re-analysis of the deposited data

How the results depend on the processing

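The count of members passing the test was 0 in 12 of 13 alternative settings and ranged from 0 to 1 when 1 array was left out. The 1 was Fos without control vector replicate 1 (log2 difference 1.38). The SE there was nearly the same for all members, at 0.286 to 0.288, so the test rested on a spread shared between probes. The gap between the 2 control arrays of Fos did not enter it. The count of all genes passing, 4 in the reported fit, was 0 for median scaling, an offset of 16, the mean of all probes of a gene and the authors' processed values, 1 over probes above background on at least 2 arrays, 10 with robust trended moderation, and 3 to 12 without 1 array. With the replicate number as a block 37 genes (0.223%) passed and 0 members, the smallest limma adjusted p among members being 0.254 for Fos. For Fos the differences between same-numbered arrays were 0.0069 (replicate 1) and 1.29 (replicate 2). Its block SE, 0.20, was near that of Fosl1 (0.19), so this test too rested on a spread shared between probes. The labels do not say that the replicate number marks a shared batch. Deviations of same-numbered arrays from their group means correlated at 0.24 over all probes and 0.52 over those above background on all 4 arrays, across probes that are not independent replicates. Directions turned for Fos (-0.084) and Jund (-0.10) without control vector replicate 2, for Fosb without control vector replicate 2 (-0.19) or NSD2 replicate 2 (-0.15), for Junb with median scaling (0.0083) and without control vector replicate 1 (0.44) or NSD2 replicate 2 (0.071), and for Maff, above background on no array, without control vector replicate 1 (0.12). The cause was not tested. Without 1 array the differences ran from -0.084 to 1.38 for Fos, -0.19 to 0.50 for Fosb, -0.55 to 0.44 for Junb, -0.10 to 0.35 for Jund and -0.27 to 0.12 for Maff. Fosl1, Jun, Atf3 and Egr1 kept their sign in all 13, Egr1 only narrowly, at 0.0047 without control vector replicate 2. Of these settings, the replicate block and robust moderation cannot move an estimate, nor can the mean of all probes where a gene has 1 probe. The limit to probes above background on at least 2 arrays also left unchanged the estimate of each member it kept. Maff had no value over probes above background on at least 2 arrays. Signals of Fosl1, Atf3 and Jund lay at most 1.68 times the background, which limits what could be detected there.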
